A study of Mus musculus with 6 samples.

Results

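Lef1, Tcf7, Ccr7, S1pr1, Il7r, Dusp10 and Trib2 were followed as a set of naive T cell and recirculation genes across the immune cells of mouse liver carrying breast cancer metastases. The 7 genes were taken by their symbols. Each of the 3 deposited matrices listed all 7, among 4486 genes where the tissue was tumour-free, 2669 in the micrometastasis matrix and 2643 in the macrometastasis matrix (1642 genes were common to all).

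Naive T cells circulate between blood and lymphoid organs until they meet antigen. They enter lymph nodes with the help of a chemokine receptor, leave along a gradient of a lysophospholipid, and survive on a cytokine supplied by stromal cells. On activation, T cells lose much of this programme, and cells that settle in a tissue such as liver keep it low.

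The samples were 6 single-cell libraries of CD45+ cells sorted from livers of Balb/c mice after intracardiac injection of 4T07 mammary tumour cells. The tumour cells carried either a scrambled control (Ctrl) or a short hairpin RNA against Tim3 (Tim3-KD), so the knockdown was in the tumour and the sequenced immune cells were not themselves altered. Each condition gave 1 library of tumour-free tissue beside the lesion at day 3 (adjacent tissue), 1 of micrometastasis at day 3 and 1 of macrometastasis at day 12. The cells of 2 mice were pooled in every library, and the age of the animals was not given in the sources used here. Because the CD45 sort leaves tumour cells out, no gene in these libraries checks the knockdown. With 1 library per condition and site, no test between conditions could be made within a site, and a fit across the 3 sites was not run. Every interval given here is a 95% interval that covers counting error only and holds nothing of the spread between mice or libraries.

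The 6 libraries held 23008 cells, from 542 to 5502 per library, with 7086536 to 79971966 unique molecular identifiers (UMIs, 1 per captured transcript) per library and a median of 6300.0 to 10248.0 UMIs per cell. At most 11 cell barcodes were shared by any pair of libraries. The adjacent Tim3-KD library stood apart, with 542 cells, no neutrophil precursor-like cells and 59.2% T-like or B-like cells, against 8.48% to 24.5% in the other 5. Cell classes were rebuilt by clustering with the 7 genes left out, and named from marker genes. They comprised 2216 T-like cells, 2306 B-like cells and 7519 mature neutrophil-like cells. A UMI of a Cd3 gene, part of the T cell receptor complex, was found in at least 95.2% of the T-like cells of each library and in 15.04% to 31.6% of the mature neutrophil-like cells.

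The genes lie on 5 chromosomes of the GRCm38 build (GENCODE M21), and all are protein coding. Lef1 (chr3:131110471-131224356, plus strand) and Tcf7 (chr11:52252371-52283014, minus strand) encode paired DNA-binding factors that act with β-catenin and maintain the naive and memory state. Ccr7 (chr11:99144196-99155077, minus strand) encodes the receptor that guides cells into lymph nodes, and S1pr1 (chr3:115710433-115715072, minus strand) the sphingosine-1-phosphate receptor that guides them out. Il7r (chr15:9505788-9530176, minus strand) encodes a chain of the interleukin-7 receptor. Dusp10 (chr1:184013302-184075636, plus strand) encodes a phosphatase of stress-activated kinases, and Trib2 (chr12:15791727-15816922, minus strand) a pseudokinase of the Tribbles family.

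Promoter sequences are shown because the members include the TCF/LEF factors themselves, and their levels moved together across the libraries. RefSeq windows (GRCm38) of the 250 bases before a listed start were matched for 5 of the 7 genes, in 9 windows. Those for Ccr7 and S1pr1 are not shown. Motifs were searched on both strands as CTTTGA (TCF/LEF), TGTTTAC (FOXO), CACCC (KLF), TGTGGT (RUNX) and GGAAG (ETS), and matches are in capitals. The first window ends before the start of Lef1 in GENCODE, the second lies inside Lef1 ahead of an internal start, and the third lies inside Dusp10 ahead of an internal start. None of the 3 overlaps an annotated exon of its gene.
Lef1 chr3:131110047-131110296, plus strand: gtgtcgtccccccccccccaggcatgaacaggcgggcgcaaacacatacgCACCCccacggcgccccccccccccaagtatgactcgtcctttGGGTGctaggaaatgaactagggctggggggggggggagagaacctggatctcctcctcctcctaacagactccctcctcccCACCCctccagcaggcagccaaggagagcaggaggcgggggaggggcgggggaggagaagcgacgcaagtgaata
Lef1 chr3:131156044-131156293, plus strand: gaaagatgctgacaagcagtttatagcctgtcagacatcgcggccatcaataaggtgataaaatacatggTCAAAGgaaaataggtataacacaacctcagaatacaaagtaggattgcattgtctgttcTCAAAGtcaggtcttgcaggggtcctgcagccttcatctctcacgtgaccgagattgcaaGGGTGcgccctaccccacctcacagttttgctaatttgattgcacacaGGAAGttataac
Dusp10 chr1:184034131-184034380, plus strand: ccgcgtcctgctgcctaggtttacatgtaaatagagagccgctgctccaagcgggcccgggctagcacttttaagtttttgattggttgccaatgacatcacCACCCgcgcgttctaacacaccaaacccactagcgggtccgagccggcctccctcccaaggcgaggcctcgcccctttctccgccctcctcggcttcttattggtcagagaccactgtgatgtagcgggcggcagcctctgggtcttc
The TCF/LEF letters occurred 2 times in the internal Lef1 window and in none of the other 8 member windows, against 13.8% of all 32851 windows of that length with a match. KLF letters were found in 7 of the 9 windows (52.0% of all windows), ETS letters in 5 of the 9 (64.1%), and neither FOXO (3.17%) nor RUNX (14.0%) letters in any. The 9 windows are not separate sequences, as several are of Lef1 and some of these overlap and share their KLF matches. By gene, KLF letters were found in 3 of the 5 genes and ETS letters also in 3. A match is a run of letters and not a measured binding site.

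Over whole libraries, all 7 genes were highest in adjacent Tim3-KD tissue and lowest in Tim3-KD micrometastasis. The share of all genes with this order is not given here. Many genes moved the same way, as 50.1% of all genes tested were at least 1.5-fold higher in adjacent Tim3-KD than in adjacent Ctrl tissue. In micrometastasis, 37.5% were at least 1.5-fold lower in Tim3-KD than in Ctrl. Levels are in CPM, the UMIs of a gene per 1000000 UMIs of all genes. Lef1 stood at 10.1 CPM in adjacent Ctrl, 57.3 in adjacent Tim3-KD, 8.52 in micrometastasis Ctrl, 2.24 in micrometastasis Tim3-KD, 14.96 in macrometastasis Ctrl and 13.7 in macrometastasis Tim3-KD. In the same order of libraries, Tcf7 measured 6.70, 42.9, 5.74, 1.65, 12.3 and 9.32 CPM. For both factors, the 2 Ctrl libraries of day 3 lay close together and below the 2 macrometastasis libraries.

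For Ccr7 the library levels were 42.7, 245, 39.8, 6.35, 65.5 and 40.0 CPM. For S1pr1 they were 14.0, 67.3, 14.8, 3.33, 25.6 and 17.4 CPM. Both trafficking receptors had the Ctrl macrometastasis as their second highest library. Il7r was at 13.3, 80.9, 21.6, 6.29, 30.3 and 27.5 CPM. Dusp10 was at 19.6, 54.3, 18.5, 7.20, 30.5 and 18.2 CPM, and Trib2 at 10.2, 48.8, 8.29, 1.46, 15.1 and 11.3 CPM. In these pooled values, fewer T or B cells and less RNA of a gene per cell cannot be told apart.

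**Figure D1:**
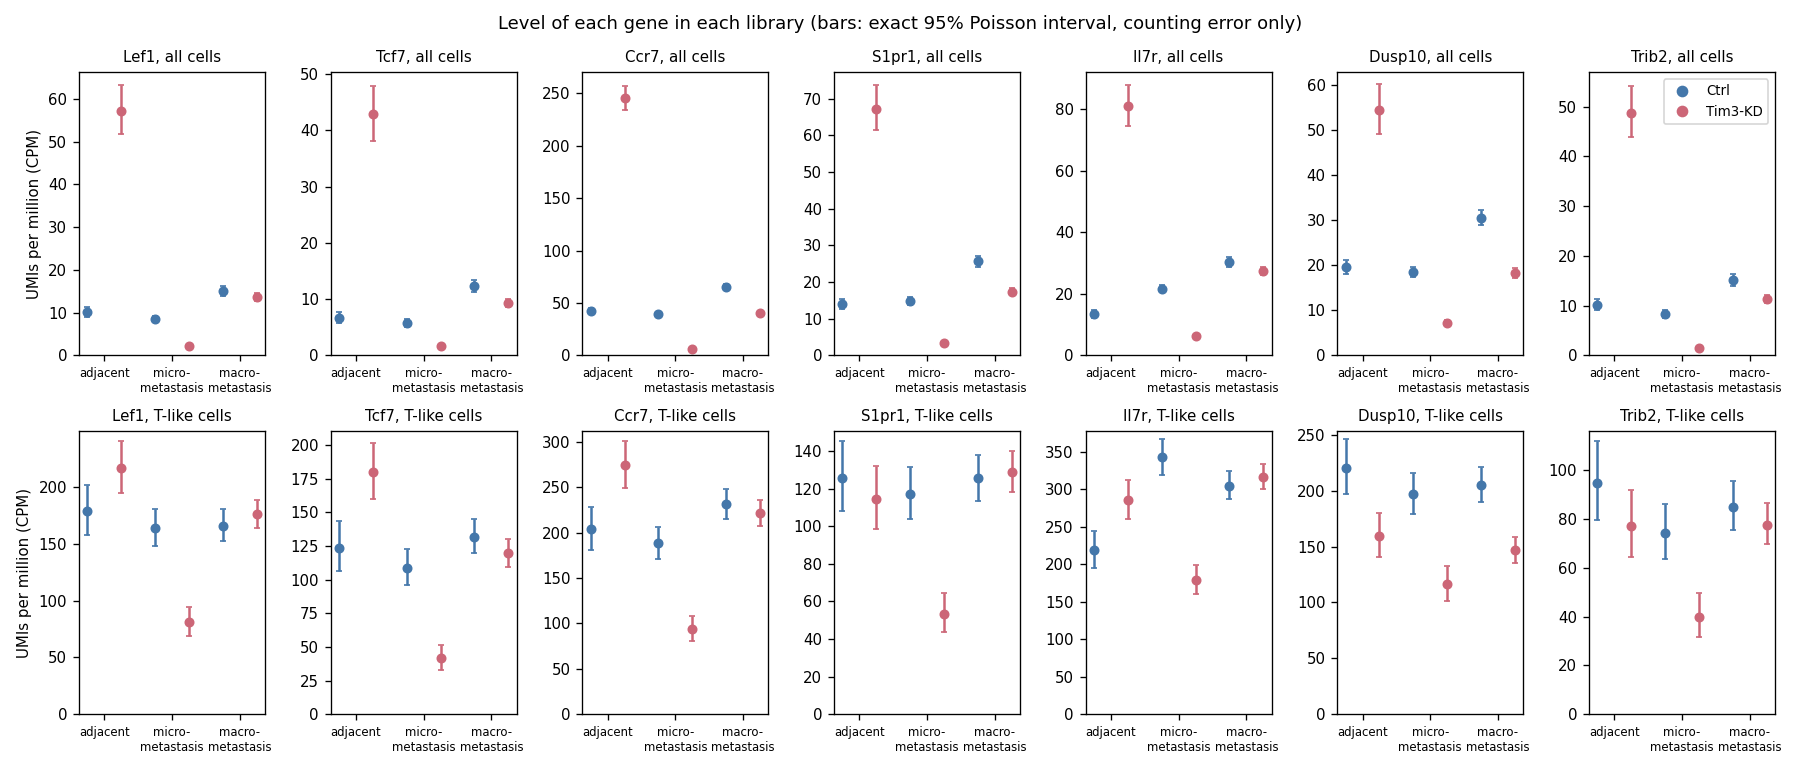
Level of each of the 7 genes in each library (CPM), with exact Poisson intervals from counting. Colours separate Ctrl from Tim3-KD. Over all cells, each gene has its highest point in adjacent Tim3-KD tissue and its lowest in Tim3-KD micrometastasis.

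Tim3-KD over Ctrl ratios were computed per site, and a gene was counted as higher or lower when it differed at least 1.5-fold with at least 20 UMIs over both libraries. In adjacent tissue all 7 genes were higher in Tim3-KD, from 2.77 for Dusp10 (interval 2.43 to 3.16) to 6.41 for Tcf7 (5.35 to 7.69), where 50.1% of all 4484 genes tested were higher. Averaged over cells, so that each cell counts alike, the ratios were 2.05 to 2.97 for 6 genes and 1.40 for Dusp10, which then did not pass. In micrometastasis all 7 were lower, from 0.160 for Ccr7 (0.145 to 0.176) to 0.390 for Dusp10 (0.351 to 0.432), where 37.5% of 2667 genes were lower. In macrometastasis Ccr7 (0.611, 0.579 to 0.645) and Dusp10 (0.597, 0.551 to 0.646) were lower and the other 5 lay between 0.678 and 0.916, where 23.3% of 2642 genes were lower. Neither of these 2 passed when averaged over cells or with trimmed-mean scaling, and Lef1 and Il7r then lay above 1, at 1.18 and 1.19 over cells and at 1.12 and 1.11 with the scaling, as did Tcf7 over cells at 1.03. The median log2 ratio of the 7 genes was 2.51, -1.93 and -0.42 at the 3 sites, beside 0.59, -0.43 and -0.26 over all genes tested. The share of T-like or B-like cells moved with these values. It was 24.5% in Ctrl and 59.2% in Tim3-KD adjacent tissue, 21.2% against 8.48% at the micrometastasis stage, then 21.96% and 21.1% at the macrometastasis stage.

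The T-like and B-like cells together held between 61.5% of all UMIs of Dusp10 and 91.2% of those of Lef1. T-like cells had the highest median level over libraries for Lef1, Tcf7, Il7r and Dusp10, and they held 85.96%, 85.1%, 75.5% and 51.2% of the UMIs of these genes. Lef1 had a median of 171 CPM in T-like cells (range over libraries 80.9 to 217), and NK or ILC1-like cells came next with 42.7 CPM (32.0 to 72.4). Tcf7 had 122 CPM (41.5 to 180) in T-like and 45.6 (28.2 to 57.2) in NK or ILC1-like cells. The ranges of the 2 classes did not overlap for Lef1 and did overlap for Tcf7. B-like cells held almost no Tcf7, with a median of 0.602 CPM.

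Ccr7 and Trib2 were instead highest in B-like cells, which held 62.1% and 46.9% of their UMIs. The median level of Ccr7 was 524 CPM (437 to 623) in B-like and 213 (93.7 to 274) in T-like cells, with no overlap. For Trib2 the medians were 90.5 CPM (76.8 to 110) and 77.5 (39.9 to 94.7), and these ranges overlapped. S1pr1 was shared by 3 classes, with medians of 149 CPM (97.1 to 215) in endothelial-like, 131 (114 to 154) in B-like and 121 (53.3 to 129) in T-like cells, all overlapping. The endothelial-like class holds 632 cells, although a CD45 sort should leave endothelial cells out, and how they came into the libraries was not tested. Il7r had a median of 295 CPM (179 to 343) in T-like cells and 287 (229 to 295) in plasmacytoid dendritic-like cells, which also overlapped, while B-like cells had 18.3 CPM. Pooled over libraries, mature neutrophil-like cells held from 0.0530 CPM of Tcf7 to 2.10 CPM of Dusp10.

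**Figure D2:**
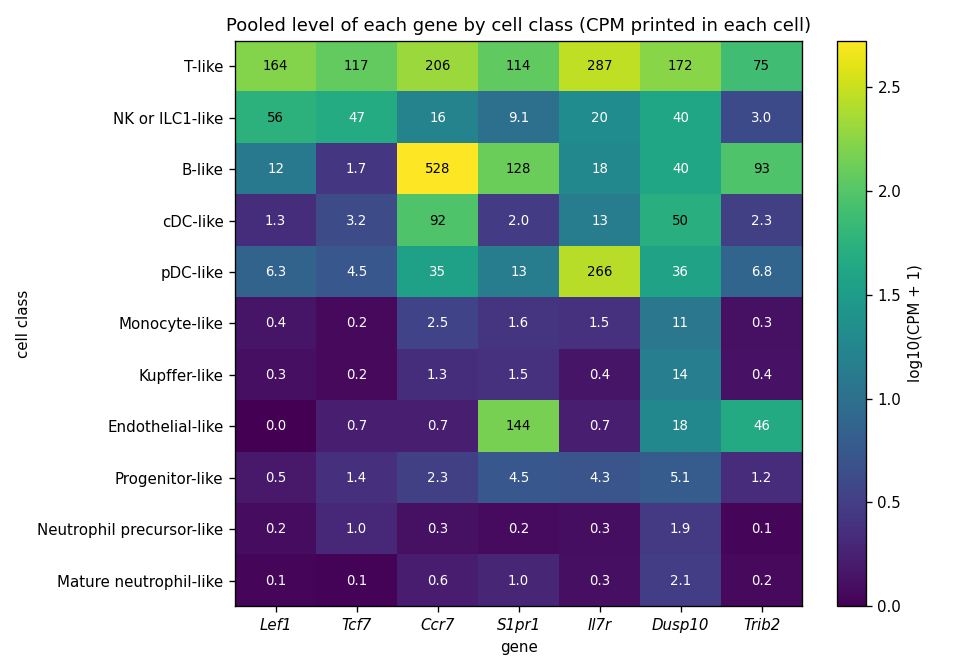
Level of the 7 genes by cell class (CPM, log scale). Over libraries with at least 20 cells of a class, Lef1, Tcf7, Il7r and Dusp10 have their highest medians in T-like cells. Ccr7 and Trib2 have theirs in B-like cells, and S1pr1 in endothelial-like cells.

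Within T-like cells the Tim3-KD micrometastasis was the lowest of the 6 libraries for every one of the 7 genes. The share of all genes that were lowest in this library is not given here. The libraries held 182, 125, 434, 364, 475 and 636 T-like cells, in the order adjacent Ctrl, adjacent Tim3-KD, micrometastasis Ctrl, micrometastasis Tim3-KD, macrometastasis Ctrl and macrometastasis Tim3-KD. In that order Lef1 stood at 179, 217, 164, 80.9, 166 and 176 CPM in T-like cells, and Tcf7 at 124, 180, 109, 41.5, 132 and 120 CPM. In micrometastasis the Tim3-KD to Ctrl ratio was 0.493 (0.407 to 0.595) for Lef1 and 0.382 (0.294 to 0.492) for Tcf7. For both factors the Ctrl micrometastasis was the next lowest library.

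T-like levels of Ccr7 were 204, 274, 188, 93.7, 231 and 221 CPM, and those of S1pr1 were 126, 114, 117, 53.3, 125 and 129 CPM. The micrometastasis ratios were 0.498 (0.417 to 0.593) for the lymph node entry receptor Ccr7 and 0.455 (0.360 to 0.572) for the exit receptor S1pr1. Il7r stood at 218, 285, 343, 179, 305 and 317 CPM in T-like cells, with a ratio of 0.522 (0.459 to 0.592) in micrometastasis. Dusp10 stood at 220, 159, 197, 116, 205 and 147 CPM, with a ratio of 0.591 (0.502 to 0.694). Trib2 stood at 94.7, 77.3, 74.2, 39.9, 85.0 and 77.7 CPM, with a ratio of 0.538 (0.407 to 0.707). All 7 genes were therefore counted as lower in T-like cells of Tim3-KD micrometastasis, where 16.3% of 2085 genes were lower, and their median log2 ratio was -1.006 beside -0.07 over all genes.

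Adjacent tissue and macrometastasis did not share this. In adjacent tissue none of the 7 passed 1.5-fold in T-like cells, where 12.0% of 3253 genes were higher and 33.2% lower. This count depended on the processing, as 3 were higher with trimmed-mean scaling, where 19.8% of all genes were higher. All 7 were higher when T cells were called one by one from Cd3 UMIs, where 56.1% of 4272 genes were higher, and of the cells called in this way 31.6% were T-like in Ctrl and 82.4% in Tim3-KD. Ratios ran from 0.723 for Dusp10 (0.612 to 0.854) to 1.46 for Tcf7 (1.21 to 1.76). In macrometastasis none passed either, where 11.6% of 2020 genes were higher and 8.51% lower. Dusp10 was at 0.715 (0.641 to 0.798), the only one of the 7 whose interval left out 1, and the other 6 lay between 0.906 and 1.06. Between Ctrl libraries, which are the same ones used above, Il7r was higher in T-like cells of micrometastasis than of adjacent tissue by 1.57 (1.38 to 1.79), where 16.1% of 1706 genes were higher (2 members among T cells called one by one, where 29.5% of 2212 genes were). From Ctrl micrometastasis to Ctrl macrometastasis no member passed in T-like cells (0.890 to 1.23), where 13.6% of 1396 genes were higher and 9.03% lower, although 4 were higher among T cells called one by one, where 50.5% of 1759 genes were higher. Over all cells, Il7r was 1.62 times as high in Ctrl micrometastasis as in adjacent tissue, where 26.1% of 2281 genes were higher, a call lost with trimmed-mean scaling or when averaged over cells. All members but Il7r were higher in Ctrl macrometastasis than in Ctrl micrometastasis, by 1.65 to 2.14, where 46.0% of 1785 genes were higher. None of the 6 passed with trimmed-mean scaling or when averaged over cells.

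**Figure D3:**
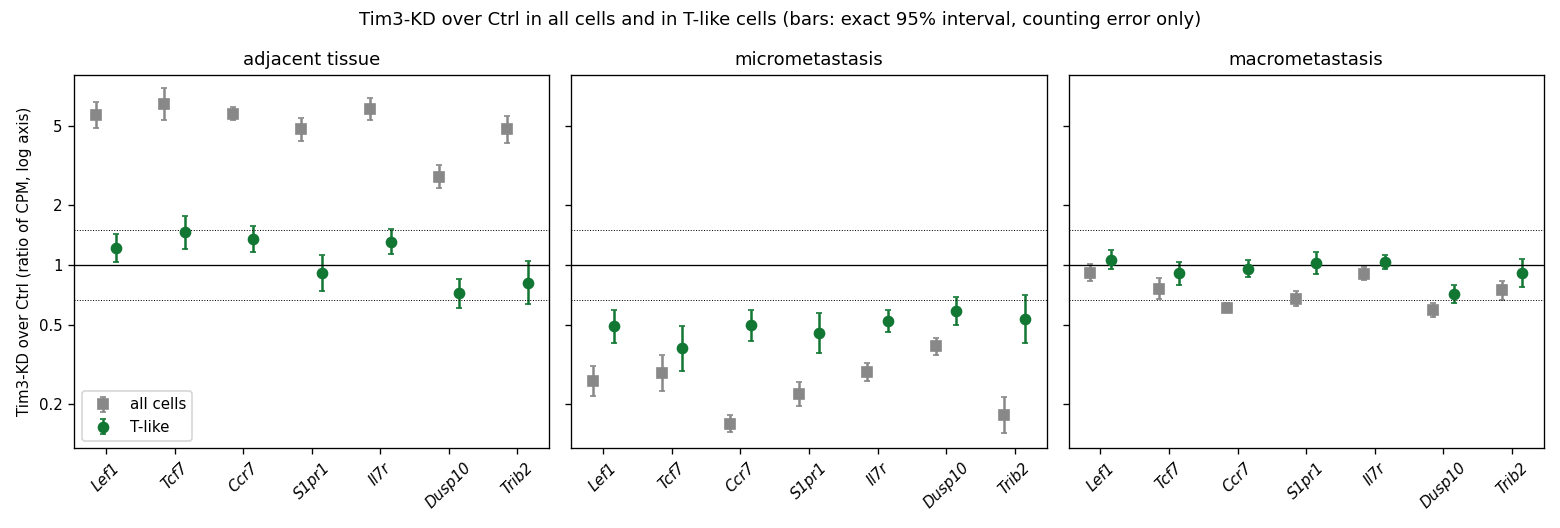
Tim3-KD over Ctrl ratio of the 7 genes at the 3 sites (log axis), over all cells and in T-like cells, with exact conditional binomial intervals from counting. Over all cells the ratios run from 2.77 to 6.41 in adjacent tissue and from 0.160 to 0.390 in micrometastasis, and in T-like cells they are below 1 for all 7 genes in micrometastasis only.

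The T-like cells were not one population, and the make-up of the T-like cells differed between the libraries. T and NK cells were clustered again, into 14 clusters numbered 0 to 13, with the 7 genes left out. The T-like class took in most of cluster 2, which its markers name NK or ILC1. That cluster held from 3.30% (Tim3-KD micrometastasis) to 13.2% (adjacent Ctrl) of T-like cells per library. Pooled over libraries, it had S1pr1 at 6.81 and Ccr7 at 17.7 CPM. Cluster 3 (431 cells, led by Igfbp4, Pdlim4 and Itga6) and cluster 13 (127 cells, led by Zeb1) were not named, as too few markers set them apart, and were the highest or second highest for 6 and 5 of the 7 genes. In cluster 3, pooled over libraries, Lef1 stood at 515 CPM, Tcf7 at 290, Ccr7 at 479, S1pr1 at 266, Il7r at 554, Dusp10 at 412 and Trib2 at 226. In cluster 13 the levels were 363, 254, 553, 284, 410, 397 and 171 CPM in the same order. Intervals of the first and second cluster did not overlap for Lef1, Il7r and Trib2 and overlapped for the other 4, so their order is not settled by counting.

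Cluster 9 (121 cells, led by Cd8b1, a chain of the CD8 coreceptor) also held Lef1 (314 CPM), Tcf7 (265) and Ccr7 (502), with less S1pr1 (139) and Trib2 (49.0). The Treg-like cluster 5 (265 cells) held Il7r at 435 and S1pr1 at 217 CPM and less of Lef1 (99.1) and Ccr7 (141). Cluster 10 (65 cells, led by Tmem176a, Tmem176b and Blk, with Trdc, the T cell receptor delta constant gene, at 402 CPM) had the highest Il7r of all, 987 CPM, and Tcf7 at 232, but Lef1 at only 22.6 CPM. The genes were thus not held as 1 block by every cluster.

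Several of the genes were low in cluster 4 (463 cells, led by Hopx and Cxcr6 among others) and cluster 12 (342 cells, led by Cd8b1, Cd8a and Havcr2). Of all 14 clusters, cluster 12 was the lowest for Tcf7 and cluster 4 for Ccr7. For the other genes the lowest was a cluster named NK or ILC1. It was cluster 0 for Lef1 (7.65 CPM), S1pr1 (0.0) and Il7r (2.55), cluster 2 for Dusp10 (32.7) and cluster 1 for Trib2 (1.87). In cluster 4 Ccr7 was at 0.754, S1pr1 at 4.90 and Trib2 at 3.77 CPM, with Lef1 at 73.9 and Dusp10 at 116. In cluster 12 Lef1 was at 18.8, Tcf7 at 20.4, S1pr1 at 12.5 and Trib2 at 3.34 CPM, with Ccr7 at 86.3. Gzmb, which encodes granzyme B of cytotoxic granules, was at 441 and 691 CPM in these clusters and at 3.14 in cluster 3. Klf2, a factor that drives S1pr1 transcription, was at 354 CPM in cluster 3, 261 in cluster 4 and 45.5 in cluster 12. Cd69, a surface protein that opposes S1PR1, was at 235, 607 and 207 CPM in those 3 clusters.

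**Figure D4:**
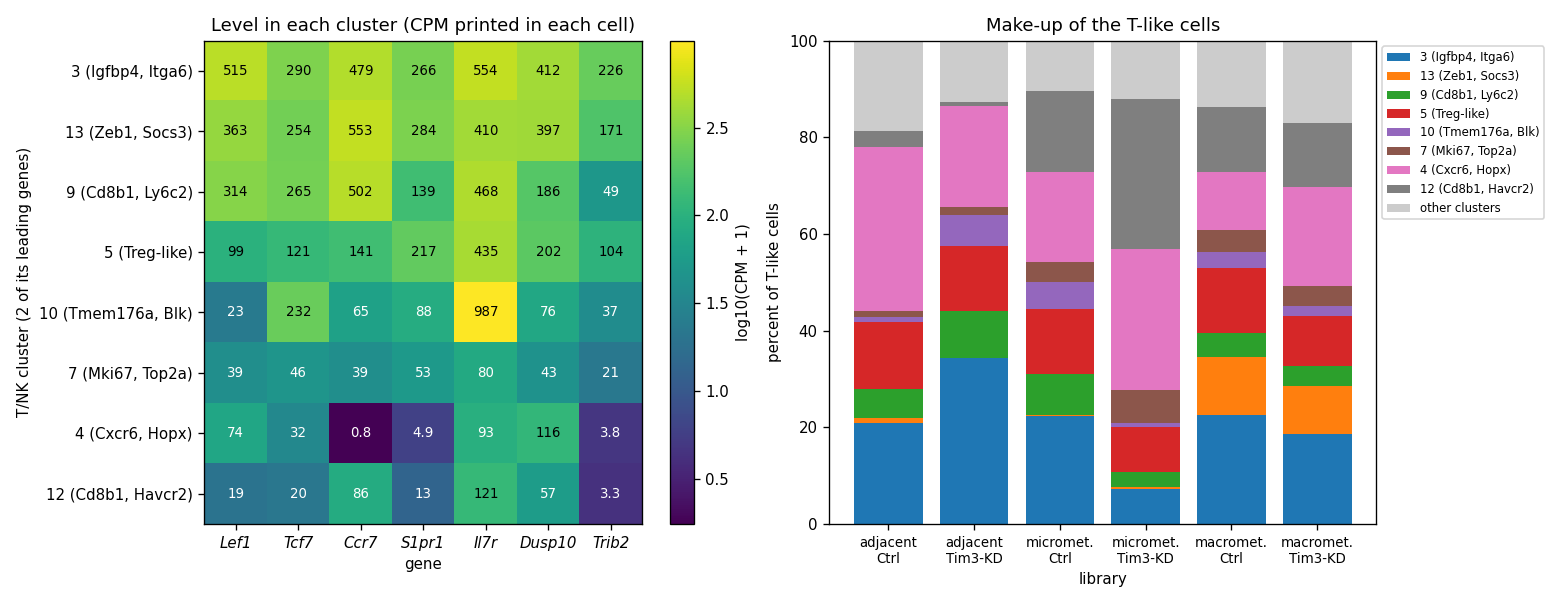
Level of the 7 genes in the T/NK clusters, pooled over the 6 libraries (CPM), and the share of T-like cells in the clusters of each library (percent). Clusters 3, 13 and 9 are high for Lef1, Tcf7 and Ccr7, and clusters 4 and 12 are low for S1pr1 and Trib2.

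In Tim3-KD micrometastasis, 7.14% of T-like cells (interval 4.72% to 10.3%) fell in cluster 3, against 22.4% (18.5% to 26.6%) in Ctrl. Adjacent tissue had 20.9% in Ctrl and 34.4% in Tim3-KD, and macrometastasis 22.5% in Ctrl and 18.7% in Tim3-KD. Cluster 12 held 31.0% (26.3% to 36.1%) of T-like cells in Tim3-KD micrometastasis and 16.8% (13.4% to 20.7%) in Ctrl, and cluster 4 held 29.1% and 18.7%. Cluster 9 held 3.02% (1.52% to 5.34%) in Tim3-KD and 8.53% (6.07% to 11.6%) in Ctrl, and cluster 10, the highest for Il7r, 0.824% (0.170% to 2.39%) and 5.53% (3.57% to 8.12%). Clusters 4, 3 and 12 held most T-like cells in either library of this site. Cluster 13 was almost limited to macrometastasis, with 12.0% and 9.91% of T-like cells there and at most 1.10% in any of the other 4 libraries.

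Within cluster 3 of micrometastasis (26 Tim3-KD and 97 Ctrl cells), Dusp10 was lower in Tim3-KD at 0.643 (0.434 to 0.925) and the other 6 lay between 0.776 and 1.02, where 24.2% of 455 genes were lower. Their intervals were wide, such as 0.578 to 1.12 for Lef1. In cluster 4 (106 Tim3-KD and 81 Ctrl cells) 3 members passed the UMI minimum, and Lef1 at 1.87 (1.05 to 3.45) and Il7r at 2.00 (1.22 to 3.37) were higher in Tim3-KD, where 13.5% of 913 genes were higher, while none was lower. In the Treg-like cluster 5 (34 and 58 cells) Ccr7 at 0.529 (0.279 to 0.946) and Dusp10 at 0.480 (0.254 to 0.851) were lower, where 28.2% of 532 genes were lower. In cluster 12 (114 and 73 cells) 4 members had enough UMIs, with ratios from 0.586 for Lef1 (0.215 to 1.56), which was counted as lower, to 1.49 for Ccr7 (0.722 to 3.26), where 21.0% of 1035 genes were lower. The intervals of all 4 included 1. Differences between the clusters were not tested. When the 8 clusters with at least 5 cells in both libraries, which held 94.4% of the UMIs, were each given their mean share over both libraries (cluster 10, with 3 Tim3-KD cells, was not among them), the micrometastasis ratios moved to between 0.806 and 1.10, and none of the 7 passed 1.5-fold. By construction, this reweighting removes differences in the shares of those clusters, and its share over all genes is not given here. The cause of the different shares was not tested, since each comes from 1 library.

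Transcripts of other cell types also differed between these T-like cells. The 10 B cell markers summed to 196 CPM in T-like cells of Ctrl micrometastasis and 329 in Tim3-KD (131 to 658 over the 6 libraries), the 5 held mature neutrophil markers to 43.2 and 134 CPM (13.4 to 134), and the 9 Kupffer cell markers to 48.3 and 123 CPM (17.3 to 123). None of the B markers was at 0 in either library, none of the neutrophil markers was, and of the Kupffer markers none was at 0 in Ctrl and 2 were at 0 in Tim3-KD. Without the 3 clusters led by genes of other cell types (6, 8 and 11), the 7 micrometastasis ratios still ran from 0.391 to 0.584, where 18.6% of 1994 genes were lower.

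Shares of cells with the transcripts were compared after thinning each cell to 1500 UMIs, which left out no cell. UMIs of at least 2 of the 7 genes were found in 33.5% (26.7% to 40.9%) of T-like cells in adjacent Ctrl and 46.4% (37.4% to 55.5%) in adjacent Tim3-KD. In micrometastasis the shares were 35.7% (31.2% to 40.4%) in Ctrl and 19.2% (15.3% to 23.7%) in Tim3-KD. In macrometastasis they were 43.6% (39.1% to 48.2%) and 41.7% (37.8% to 45.6%). Tim3-KD micrometastasis was lowest, and its interval met none of the other 5. Before thinning the shares were 64.8%, 75.2%, 60.6%, 36.8%, 73.5% and 65.6%, at median depths of 7331.5, 12505.0, 4610.5, 4056.0, 5479.0 and 5364.5 UMIs. As a measure of free RNA, 0 of 19 to 0 of 2020 mature neutrophil-like cells per library had 2 of the genes after thinning, at median depths of 5148.0 to 5912.0 UMIs, which allows up to 17.6% in the smallest library and 0.182% in the largest. B-like cells had 14.8% to 21.9%. T-like cells with none of the 7 genes made up 38.5%, 36.8%, 41.2%, 56.3%, 31.2% and 36.2% in the 6 libraries.

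**Figure D5:**
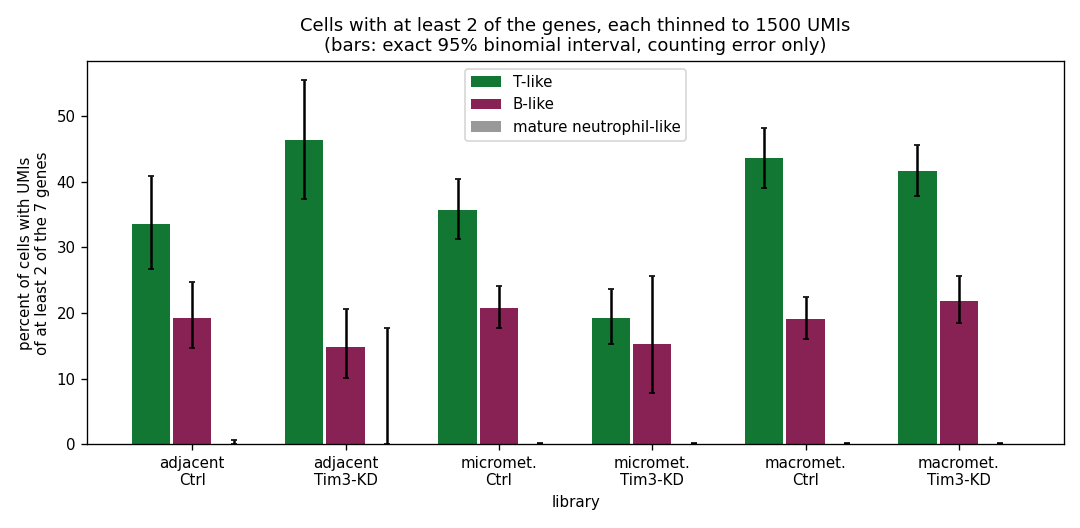
Share of cells with UMIs of at least 2 of the 7 genes after thinning to 1500 UMIs (percent), by library and cell class, with exact binomial intervals. T-like cells of Tim3-KD micrometastasis stand at 19.2% and those of the other 5 libraries between 33.5% and 46.4%, while mature neutrophil-like cells are at 0.

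After the thinning described above, single T-like cells with a UMI of one gene had a higher share with a UMI of another. The shares given here are therefore lower than those in cells before thinning. In all 42 ordered pairs of genes, the share of cells with the second gene was higher among cells with the first than among cells without it, by 1.58 to 3.03 times (median 2.14), and in 36 pairs this was so in each of the 6 libraries. Among the 448 thinned T-like cells with Lef1, for example, 28.6% also had Tcf7, against 13.3% of those without. Of the same 448 cells, 37.1% also had Ccr7, against 14.5% of those without Lef1. These cells come from 6 libraries and from clusters of different levels, so the values describe the cells and are not a test.

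Across cell classes the members fell into smaller groups. Over 49 units of a class in a library with at least 50 cells, log2(CPM + 10) of Lef1 was close to that of Tcf7 (Pearson r = 0.956) and Trbc2 (0.948). For Tcf7, the nearest of 1640 shared genes were the feature Trbc1_TrCGene-Trbc2 (0.9796), Cd247 (0.975) and Skap1 (0.973), all parts of T cell receptor signalling. S1pr1 was most like Trib2 (0.977), Foxo1 (0.909) and Gimap6 (0.898), and Trib2 was most like S1pr1, Foxo1 (0.885) and Gm8369 (0.875). Nearest to Ccr7 were Gm8369 (0.906), Irf4 (0.905) and Gpr18 (0.894). Nearest to Il7r were Cd8b1 (0.924), Kbtbd11 (0.907) and Cd8a (0.891), and nearest to Dusp10 were Gramd3 (0.932), Grap2 (0.920) and Inpp4b (0.904). Within the set the lowest values were those of Tcf7 with S1pr1 (0.422) and with Ccr7 (0.425). The units share libraries and cell classes, so these are descriptions only.

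Other genes of the naive and recirculation programme were counted from a list of 27 partners, of which the micrometastasis matrix held 19, all tested in T-like cells. None was higher in Tim3-KD and 5 were lower, where 12.3% of all genes were higher and 16.3% lower, with a median log2 ratio of -0.33 beside -0.07 over all genes. Without the clusters led by other cell types 8 were lower, where 18.6% of all genes were. Those 5 were Igfbp4 at 0.274 (0.186 to 0.394), Bcl11b at 0.455 (0.340 to 0.604), Socs3 at 0.470 (0.345 to 0.632), Itgb7 at 0.521 (0.439 to 0.618) and Satb1 at 0.582 (0.503 to 0.672). Bcl11b and Satb1 are regulators of T cell identity, and Itgb7 is an integrin chain used in homing. Klf2 was at 0.868 (0.744 to 1.01) and Foxo1, which drives Il7r and Klf2 in naive T cells, at 0.755 (0.574 to 0.989), neither past 1.5-fold.

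Of 28 listed effector, exit and residency genes, 20 were tested at that site, with 5 higher in Tim3-KD and 1 lower, against the same shares over all genes. Havcr2, which encodes TIM3 on the immune cells themselves, stood at 2.57 (1.80 to 3.74), the granule genes Gzma at 2.40 (2.26 to 2.56) and Prf1 at 2.17 (1.87 to 2.52), and the factors Tox at 1.66 (1.34 to 2.07) and Prdm1 at 1.54 (1.05 to 2.27). Cxcr3, a chemokine receptor of effector cells, was lower at 0.576 (0.428 to 0.769). The median log2 ratio of this list was 0.21. In macrometastasis 1 of 21 partners was higher (Bcl2) and 1 lower (Ly6c2), and 1 of 17 effector genes was higher (Itga1), where 11.6% of all genes were higher and 8.51% lower, so these counts were not above those of all genes.

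Ccr7, S1pr1 and Trib2 of B-like cells in micrometastasis stood at Tim3-KD to Ctrl ratios of 0.941 (0.794 to 1.11), 1.12 (0.822 to 1.49) and 0.948 (0.608 to 1.42), with 72 B-like cells in Tim3-KD and 649 in Ctrl. Of the 6 members past the UMI minimum there, Lef1 and Dusp10 were counted as lower, where 29.1% of 1910 genes were lower, and both of their intervals included 1. In macrometastasis Ccr7 of B-like cells was at 437 CPM in Tim3-KD and 623 in Ctrl, a ratio of 0.701 (0.652 to 0.755) that is short of 1.5-fold.

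Lef1 and Il7r in B-like cells rested on few UMIs and moved in opposite directions at 2 sites. Lef1 had 14 UMIs in Tim3-KD and 38 in Ctrl adjacent tissue (0.288, 0.144 to 0.543), and 42 and 10 in macrometastasis (4.01, 1.98 to 8.96). Il7r had 3 and 28 UMIs in adjacent tissue (0.0836, 0.0163 to 0.271), and 94 and 26 in macrometastasis (3.45, 2.22 to 5.55). Dusp10, with 46 and 92 UMIs, was also lower in adjacent tissue (0.390, 0.268 to 0.562), which made 3 of 6 members past the UMI minimum. In B-like cells, 26.2% of 3411 genes were lower in adjacent tissue and 9.56% of 1767 were higher in macrometastasis. Lef1, Il7r and Trib2 were higher in the B-like cluster led by Vpreb3, a gene of immature B cells, at 53.4, 90.8 and 223 CPM, than in the main B-like cluster, at 5.57, 7.40 and 74.6 CPM. The Vpreb3-led cluster held 64 and 10 cells in adjacent tissue and 23 and 57 in macrometastasis (Ctrl, then Tim3-KD), where its share moved with both genes. In micrometastasis it held 144 and 3 cells, and Il7r of B-like cells was at 0.865 (0.336 to 1.87), with 7 UMIs in Tim3-KD. The part of this cluster in the result was not tested.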

How the data were processed

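The sources describe 10x 3′ libraries of CD45+ liver cells. According to the submitters' processing notes, reads were trimmed with Trim Galore 0.4.3 and mapped with STAR 2.7.7a to GRCm38, and per the methods exonic and intronic reads were counted. The authors deposited 1 matrix per site of highly variable genes as a score per cell, log-normalised, regressed on total UMIs and scaled (as the values show) over both libraries and capped at 10. UMIs were recovered from these deposited scores by inverting that scaling, which gave whole numbers within 0.05 for 99.9997%, 99.9999% and 99.9972% of detected values. The recovery was tested on simulated data of 4485 genes for adjacent tissue, where 100.0% of UMIs were exact. The deposited cell names gave each cell its library, and the deposited gene names end in a biotype. Totals per cell are those recovered from the scores, and depth is given in the report.

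Cells were clustered on shared genes without the 7 members (scanpy 1.11.5, 30 principal components, 15 neighbours, Leiden resolution 1). The authors used scrublet for doublets before deposit, and no further cell was removed. A score recomputed from the recovered UMIs was over 0.15 in 7.00% to 12.0% of cells per library. Ratios are summed UMIs over summed totals with exact conditional binomial intervals, levels have exact Poisson and shares exact binomial intervals. With 1 library per group no test was run. The planned tests assumed counts, and scores were found, so the recovered UMIs were used in their place. The rule for named genes took the 7 members, genes of both lists past 1.5-fold in T-like cells (a selection where there were over 5), and the 3 genes most correlated with each member, of which 1 is not reported here. Other genes, which lead or mark clusters or are given for their role, were chosen after their values were seen. The members and lists were chosen with earlier results of these data known.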

Additional observations from a re-analysis of the deposited data

Results flagged for a closer look

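Over all cells, the Tim3-KD to Ctrl ratio pointed in opposite directions at 2 sites for all 7 genes, and the difference itself was not tested, as each value rests on 1 pair of libraries. In adjacent tissue and micrometastasis respectively, the ratio was 5.68 and 0.263 for Lef1, 6.41 and 0.288 for Tcf7, 5.74 and 0.160 for Ccr7, 4.79 and 0.225 for S1pr1, 6.07 and 0.291 for Il7r, 2.77 and 0.390 for Dusp10, and 4.81 and 0.176 for Trib2. Averaged over cells, the adjacent tissue ratios were smaller, at 2.51 for Lef1, 2.97 for Tcf7, 2.35 for Ccr7 and 1.40 for Dusp10, which then did not pass 1.5-fold. Between adjacent tissue and macrometastasis the ratios also lay on opposite sides of 1 for all 7 genes, but in macrometastasis Lef1 and Il7r turned above 1 when averaged over cells (1.18 and 1.19) or with trimmed-mean scaling (1.12 and 1.11), as did Tcf7 over cells (1.03). In macrometastasis Ccr7 (5.74 in adjacent tissue and 0.611) and Dusp10 (2.77 and 0.597) were past 1.5-fold, and the other 5, from 0.678 to 0.916, were not. The adjacent Tim3-KD library is the one of 542 cells, and the share of T-like or B-like cells moved the same way as the genes at both day 3 sites.

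In B-like cells, Lef1 was at 4.01 in macrometastasis and 0.288 in adjacent tissue, and Il7r at 3.45 and 0.0836. These differences were not tested either.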

How the results depend on the processing

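Each comparison rests on 1 library per group, so the spread between mice cannot be seen and leaving out a library leaves none. No paired analysis was possible within a site, because the groups compared have 1 library each and share only 1 replicate number. A fit across the 3 sites with site as a term, which would treat the sites as repeats, was not run. The 7 micrometastasis ratios of T-like cells had 49 values under the alternatives listed at the outset, all past 1.5-fold lower (0.184 to 0.618). These include the T cells called one by one, of which 23.7% were T-like in micrometastasis Tim3-KD and 42.8% in Ctrl. That calling therefore takes in other cells with a Cd3 UMI, and its share over all genes is not given here. The reweighting of clusters described below is not among the 49.

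Counts of members past 1.5-fold moved by over 1.5 times as follows. Over all cells, averaging over cells and trimmed-mean scaling each gave 0 lower members in macrometastasis Tim3-KD (from 2), 0 higher in Ctrl micrometastasis over adjacent tissue (from 1) and 0 higher in Ctrl macrometastasis over micrometastasis (from 6), and trimmed-mean scaling gave 1 lower member in Ctrl micrometastasis over adjacent tissue. A smaller move was that of adjacent Tim3-KD tissue, from 7 to 6 higher when averaged over cells. In T-like cells of adjacent tissue, 0 higher became 1 when averaged over cells, 3 with trimmed-mean scaling (19.8% of all genes higher), 1 without doublet scores over 0.15 (13.2%) and 7 with T cells called one by one from Cd3 UMIs (56.1%). Of the cells called one by one, 31.6% were T-like in adjacent Ctrl, 82.4% in adjacent Tim3-KD and 23.7% to 43.3% in the other 4 libraries. That calling also gave 2 higher members in Ctrl micrometastasis over adjacent tissue (29.5% of all genes) and 4 in Ctrl macrometastasis over micrometastasis (50.5%), and averaging over cells gave 1 lower member in macrometastasis Tim3-KD. In B-like cells of micrometastasis, 2 lower members became 1 when averaged over cells and 0 without cells under 3000 UMIs.

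Alternatives chosen after seeing the data were leaving out the clusters led by other cell types, which gave 1 higher member in adjacent T-like cells, and giving T/NK clusters with at least 5 cells in both libraries their mean share (5 clusters with 84.7% of the UMIs in adjacent tissue, 8 with 94.4% in micrometastasis), which gave 2 lower in adjacent tissue and 0 of 7 lower in micrometastasis, where Trib2 turned to 1.10. By construction the last one removes differences in the shares of these clusters.

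Shares of T-like cells with at least 2 members, in library order, were 52.2%, 61.8%, 51.4%, 32.1%, 60.3% and 54.4% when thinned to 3000 UMIs, and 9.77%, 35.3%, 17.1%, 4.30%, 19.1% and 17.4% with T cells called one by one. With at least 100 UMIs, genes lower in macrometastasis T-like cells made up 4.65% and genes higher in Ctrl macrometastasis over micrometastasis 7.62%. Of the other values, 179 summary values and 441 member values stayed within their limits, 128 member values moved and 1 reversed, that of Trib2 given above. A value was counted as reversed only where it crossed 1 from a main ratio past 1.5-fold. Values that crossed 1 from a smaller main ratio, such as those of Lef1, Il7r and Tcf7 in macrometastasis over all cells, are among the moved. The cause of these shifts was not tested.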

Other observations

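In T-like cells of adjacent tissue, 11 of 17 effector, exit and residency genes tested were lower in the Tim3-KD library, 1 was higher and 5 did not pass 1.5-fold, where 33.2% of all genes were lower and 12.0% higher, with a median log2 ratio of -0.86 beside -0.31 over all 3253 genes. Gzmb, a cytotoxic granule protease, stood at 0.493 (0.436 to 0.556), Ifng, the type II interferon, at 0.479 (0.408 to 0.562) and Ccl5, a chemokine of effector cells, at 0.477 (0.454 to 0.501), while Gzma stood at 1.97 (1.73 to 2.24). Of 20 partners of the naive programme, Klf2 at 2.06 (1.80 to 2.36) and Ly6c2 at 1.67 (1.34 to 2.08) were higher and 4 (Bach2, Bcl2, Cd27 and Myb) were lower, counts no higher than the shares over all genes. This library has 125 T-like cells.

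Ccr7 was also high in a small dendritic cluster of 28 cells with markers of mature migratory dendritic cells, which carry antigen to lymph nodes. It stood there at 1682 CPM, with a UMI in 89.3% of cells (interval 71.8% to 97.7%). In the same cells Lef1, S1pr1 and Trib2 had 0 UMIs and Il7r was at 85.3 CPM. The cluster held 0 cells in both adjacent libraries, 5 in each micrometastasis library, 10 in Ctrl and 8 in Tim3-KD macrometastasis.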
